A study of Mus musculus with 6 samples.

Results

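The 8 genes described here encode proteins that move sodium, bicarbonate and water across the proximal tubule: Slc9a3, Slc4a4, Car2, Car4, Car14, Atp1b1, Aqp1 and Cldn2. They were chosen by name for this function, and their open chromatin regions were taken as every region whose strongest summit lay in the gene body or within 20 kb of it. That gave 147 of the 99359 regions found in 6 libraries of ATAC-seq, an assay in which a transposase cuts accessible DNA. The libraries came from S1 segments, the first part of the proximal tubule, dissected by hand from kidneys of male wild-type C57BL/6 mice (Taconic) aged 7 weeks. The Sham group (3 libraries) had a sham operation and the UNx group (3 libraries) lost 1 kidney by surgical excision (unilateral nephrectomy), both sampled at 24 h, and each library held 3 tubule pieces. The labels name no transgene or drug, and they leave unsaid if libraries of a group were from separate mice. The p-values therefore measure the spread between libraries, which may be partly technical.

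As background, the proximal tubule recovers most of the filtered sodium, bicarbonate and water. Slc9a3 encodes NHE3, the apical exchanger that takes up sodium and secretes protons. Secreted protons combine with filtered bicarbonate, membrane-bound carbonic anhydrases on the lumenal and basolateral surfaces (Car4, Car14) and the cytosolic enzyme (Car2) interconvert carbon dioxide and bicarbonate, and NBCe1, the product of Slc4a4, carries sodium and bicarbonate out across the basolateral membrane. The sodium pump, of which Atp1b1 encodes a beta subunit, keeps cell sodium low, aquaporin 1 (Aqp1) lets water follow, and claudin-2 (Cldn2) forms a cation-selective and water-permeable pore between cells. After loss of 1 kidney the remaining kidney is known to enlarge and to reabsorb more per nephron.

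The value given for a region is its percentile rank by −log10 q (the peak caller's significance) among the 77355 strongest peaks of a library. The strongest peak is near 100, and 0 means that the region was not among those peaks. A rank places a region relative to the other peaks of the same library and is not an amount of accessibility. Promoter regions have their strongest summit within 1 kb of an annotated start of the gene, and distances are counted from the 5′ end of the gene, negative upstream. Coordinates are those of GRCm38 (mm10).

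Of the 147 regions, 13 were promoter regions of the 8 genes, 131 were distal and 3 were promoters of neighbouring genes that fall in the windows. By place, 95 summits lay in introns, 48 between genes and 4 in coding exons. The largest gene, Slc4a4, held 59 regions, followed by Atp1b1 with 21, Cldn2 with 14, Slc9a3 with 13, Car2 with 12, Car4 with 10, and Car14 and Aqp1 with 9 each. Per 10 kb of window the 8 genes held 1.48 (Slc9a3) to 3.43 regions (Atp1b1), while the median over 21911 protein-coding genes was 0.64. Every one of the 8 genes had a promoter region in all 6 lists.

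The sequences that the results turn on are shown first. Slc4a4 has a start at its 5′ end and another 141148 bp further in, and the 200 bases before each start (RefSeq GRCm38.p6, plus strand, CpG dinucleotides in capitals) differ in composition. The upstream window, chr5:88886618-88886817, was 80.0% G and C with 30 CpG, and the internal window, chr5:89027766-89027965, was 51.0% G and C with 3 CpG. Among the 32851 gene promoters of the RefSeq table, which holds 7 of the 8 genes, the median number of CpG in the same 200 bases was 5, 2.64% had 30 or more and 42.9% had 3 or fewer.
Slc4a4 upstream promoter: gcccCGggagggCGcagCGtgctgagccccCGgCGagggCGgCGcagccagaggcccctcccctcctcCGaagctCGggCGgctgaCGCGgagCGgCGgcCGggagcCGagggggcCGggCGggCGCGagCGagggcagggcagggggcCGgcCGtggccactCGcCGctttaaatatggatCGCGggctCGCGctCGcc
Slc4a4 internal promoter: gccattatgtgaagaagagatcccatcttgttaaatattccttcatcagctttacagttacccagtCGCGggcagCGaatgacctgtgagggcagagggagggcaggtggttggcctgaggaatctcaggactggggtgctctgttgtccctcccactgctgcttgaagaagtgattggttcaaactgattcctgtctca

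The next sequences are the promoter of Slc9a3, the intron region of Slc9a3 with the smallest p of the gene, and the regions with the smallest p at Car14 and Atp1b1. They are written along the strand of the gene, with the consensus strings searched for in capitals. The Slc9a3 promoter window is chr13:74121257-74121456 on the plus strand, and its capitals mark the E-box string CACGTG and the SP/KLF string CCGCCC on either strand. The Slc9a3 intron window, chr13:74121875-74122075 on the plus strand, holds none of the 9 strings. The Car14 intron window is chr3:95903883-95904083 on the minus strand and has the E-box string. The Atp1b1 upstream window is chr1:164465684-164465884 on the minus strand and has the AP-1 string TGANTCA.
Slc9a3 promoter: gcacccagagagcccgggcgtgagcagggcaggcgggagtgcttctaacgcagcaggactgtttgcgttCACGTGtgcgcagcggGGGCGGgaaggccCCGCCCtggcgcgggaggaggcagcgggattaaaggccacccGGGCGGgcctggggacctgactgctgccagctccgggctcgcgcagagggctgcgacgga
Slc9a3 intron summit: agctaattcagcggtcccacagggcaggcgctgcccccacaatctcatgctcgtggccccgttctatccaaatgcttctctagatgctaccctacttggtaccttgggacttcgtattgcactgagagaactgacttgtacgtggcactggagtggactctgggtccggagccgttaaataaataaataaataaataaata
Car14 intron summit: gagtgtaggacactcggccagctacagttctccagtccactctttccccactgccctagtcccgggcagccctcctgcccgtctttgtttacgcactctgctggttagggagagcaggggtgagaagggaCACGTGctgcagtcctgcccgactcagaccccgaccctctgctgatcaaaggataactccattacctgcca
Atp1b1 upstream summit: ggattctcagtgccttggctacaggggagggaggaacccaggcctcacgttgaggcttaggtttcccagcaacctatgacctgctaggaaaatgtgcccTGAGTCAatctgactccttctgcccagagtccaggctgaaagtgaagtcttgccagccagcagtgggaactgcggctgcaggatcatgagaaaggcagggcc

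The first question was how open the promoters of these genes were relative to each other and to other genes. The internal promoter of Slc4a4 stood highest, at a mean percentile of 95.2 ± 1.73 (SD, n = 6 libraries), followed by Atp1b1 at 91.6 ± 2.98, Slc9a3 at 87.6 ± 2.87 and Aqp1 at 87.2 ± 1.73. The carbonic anhydrases and claudin-2 were lower: Car2 at 75.5 ± 8.33, Cldn2 at 68.1 ± 9.66, Car14 at 64.8 ± 11.2 and Car4 at 60.0 ± 3.51. Each gene is represented by its highest-ranked promoter region. For Car14 this is the intron region 708 bp in, where the groups stand apart (means 55.8 in Sham and 73.9 in UNx). The region at the Car14 start had a mean of 57.6, below Car4. The median over the 13795 protein-coding genes that had a promoter region was 85.4, and genes without one were left out of it. Neighbours in this order did not separate in all libraries except for Aqp1 over Car2, which held in 6 of 6 (mean gap 11.8, SD 9.65). Aqp1 and Slc9a3 differed by 0.34, with Slc9a3 higher in 2 of 6. Among genes with a promoter region, Car2, Car4, Car14 and Cldn2 thus sat below the median, and Slc9a3, Slc4a4, Atp1b1 and Aqp1 above it. Cldn2 lies on the X chromosome, of which male mice have 1 copy. Tested X-linked promoter regions had a median percentile of 72.8 and autosomal ones 82.9, and the part of this in the rank of Cldn2 was not tested.

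**Figure D1:**
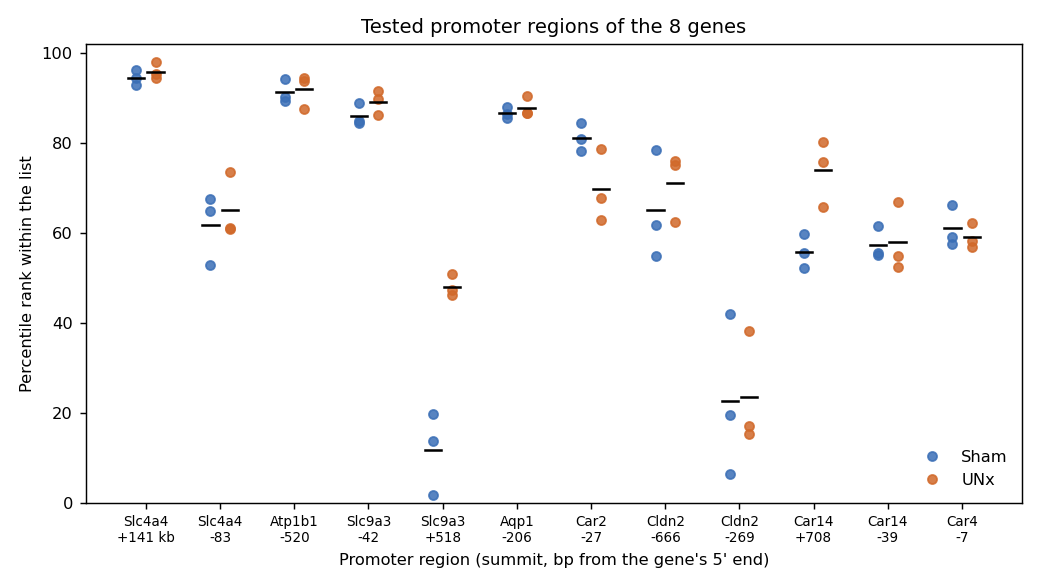
Percentile rank within the list (vertical axis) of each tested promoter region of the 8 genes, with the summit's distance from the 5′ end under the gene name. Points are libraries (3 Sham, 3 UNx) and bars are group means. The internal Slc4a4 promoter is the highest, and the Slc9a3 region at +518 has the widest gap between the groups.

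Across the 12 tested promoter regions, none passed the test for a difference between UNx and Sham. The test was limma across the 74781 regions found in 3 or more lists, of which 589 (0.788%) passed an adjusted p of 0.05. Among the promoter regions of all protein-coding genes 51 of 12065 (0.423%) passed. At an unadjusted p under 0.05 there were 3 of the 12. The share was 14.2% of all tested regions within 1 kb of a coding start and 18.6% of all tested regions. Taking the highest-ranked promoter region of each gene, UNx was higher at 6 genes and lower at Car2 and Car4.

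Over all classes, 103 of the 147 regions were in enough lists to be tested and 44 were not. No tested region of the 8 genes passed limma's adjusted p of 0.05, and 20 (19.4%) had an unadjusted p under 0.05, a share near the 18.6% of all regions. UNx was higher at 72 and lower at 31, with a median difference of 3.41 percentile points, while over all tested regions 49.9% were higher and the median was −0.01. The 3 UNx libraries all stood above the 3 Sham libraries at 18 of the 103 and all below at 8, against 12.0% and 11.7% of all tested regions. A region seen in the 3 UNx lists alone passes the filter only through the group in which it is high, so these counts describe the tested regions and support no direction. By strength, UNx was higher at 28 of 33 regions with a mean percentile of 0 to 25 (median difference 11.3), 11 of 21 at 25 to 50 (1.54), 20 of 29 at 50 to 75 (2.77) and 13 of 20 above (1.32). The median difference was therefore largest among weak regions. When peaks were ranked by the authors' fold enrichment in place of −log10 q, UNx was higher at 32 of 70 tested regions and the median was −0.63, so the direction depends on which of the caller's values ranks the peaks.

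**Figure D2:**
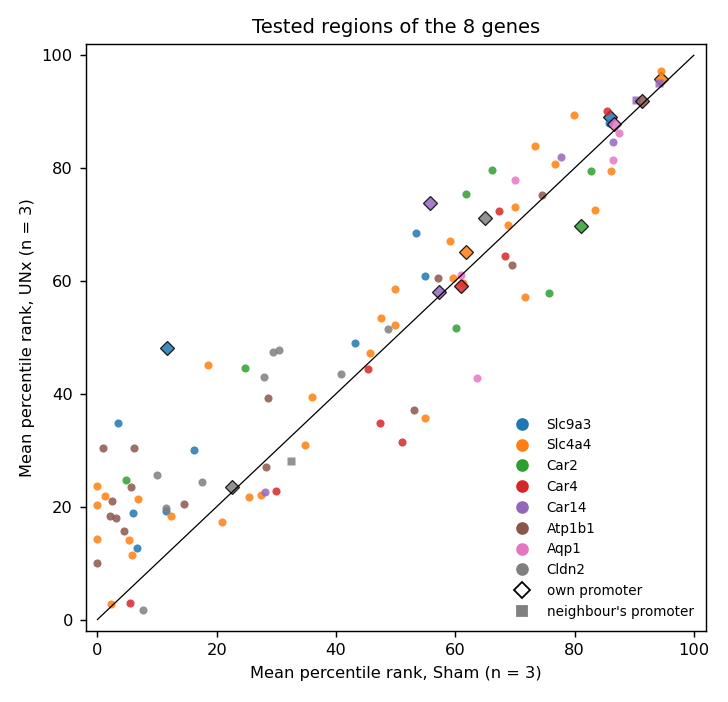
Mean percentile rank in the 3 UNx libraries against that in the 3 Sham libraries for the 103 tested regions of the 8 genes, coloured by gene, with diamonds for the genes' own promoters and squares for promoters of neighbouring genes. Strong regions lie along the diagonal, and most of the weak ones, at the lower left, lie above it.

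The number of regions of the 8 genes was also compared between libraries. The Sham lists held 94, 99 and 89 of the regions and the UNx lists 101, 103 and 126. The UNx libraries were all above the Sham libraries, with a mean difference of 16.0 (exact permutation test, two-sided, p = 0.1, the smallest that 3 against 3 can give). The library UNx 3 carried much of this gap, which was 8.0 without it, and 18 of the 32 regions found in 1 list were found in UNx 3 alone (56.2%, against 23.9% of all regions found in 1 list). UNx 3 also had the highest median −log10 q of the deposited lists, 26.5, against 12.1 in the lowest, Sham 2. Its part in the counts beyond the value without it was not tested. Regions above the 50th percentile numbered 51, 51 and 51 in Sham and 50, 48 and 54 in UNx, so the counts of strong regions overlapped. Ranking by fold enrichment turned the mean difference to −1.67.

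By gene, Atp1b1 had the clearest gap, with 10, 12 and 10 regions in Sham and 14, 16 and 20 in UNx (exact p = 0.1, two-sided permutation test). It was singled out after the counts of all 8 genes were seen, and 4 of its regions were in UNx 3 alone. How often other genes have such a gap was not tested. Slc4a4 had 30, 34 and 27 in Sham and 37, 33 and 47 in UNx, which overlap (exact permutation p = 0.2). The other 6 genes differed by at most 1.33 regions in the mean. The 44 regions that were not tested were in 1 or 2 lists, and 25 of them belonged to Slc4a4 and 5 to Atp1b1.

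**Figure D3:**
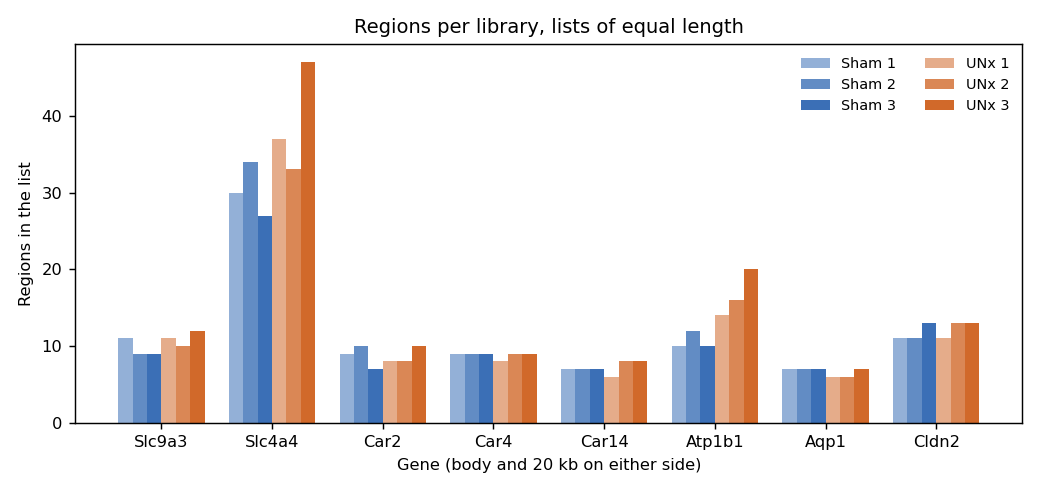
Number of regions of each gene (body and 20 kb on either side) in each of the 6 lists, bars from 0. Atp1b1 has 10 to 12 regions in the Sham lists and 14 to 20 in the UNx lists, and the groups overlap or touch at the other 7 genes.

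Slc9a3 (ENSMUSG00000036123.8, chr13:74121457-74169442, plus strand) encodes the apical exchanger, and UNx was higher at all 11 of its tested regions, with a median difference of 7.81. None of them passed the test. The count supports no direction, because the region 22044 bp in was tested through the UNx libraries. Its promoter region (chr13:74121079-74121692, summit 42 bp before the gene) was at 88.8, 84.9 and 84.4 in Sham and at 89.8, 86.1 and 91.5 in UNx. The groups overlap there, and the difference was 3.09 (SE 2.54, limma adjusted p = 0.54). The strongest distal region of Slc9a3, in an intron 22781 bp in, was at 87.0, 87.3 and 82.8 in Sham and at 88.1, 93.7 and 82.3 in UNx, so the gene has a promoter and an intron region of like rank.

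The widest gap at any of the 8 genes was at a weaker intron region of Slc9a3, 518 bp from the 5′ end (chr13:74121817-74122253), which counts as a promoter region by distance. It was at 1.74, 13.8 and 19.6 in Sham and at 46.1, 47.3 and 50.8 in UNx. All 3 UNx libraries lay above all Sham libraries, in a tight range. The difference of 36.3 percentile points (SE 10.4) had a limma adjusted p of 0.089 and did not pass, and it lay between 31.3 and 40.9 in the 14 alternatives that keep percentile points. With normal scores included, the sign held in 15 of 15 alternatives that gave a value (limma adjusted p 0.056 to 0.23). The ranking by fold enrichment and the 20000 strongest peaks gave no value for this region. Its direction under fold enrichment was therefore not tested. Another intron region, 22044 bp in, was at 10.2, 0 and 0 in Sham and at 27.6, 44.3 and 32.4 in UNx (difference 31.3, SE 10.3, limma adjusted p = 0.12). It lies beside the strong intron region, whose ranks overlap between the groups. The region 22044 bp in entered the test through the UNx libraries, so its p-value is no support for a difference. In the full deposited lists a Sham 3 peak also overlapped it, at a −log10 q of 5.10. A region 8642 bp in was at 54.3, 47.0 and 59.2 in Sham and at 69.1, 63.1 and 73.1 in UNx (difference 14.9, SE 6.55, limma adjusted p = 0.23). These last 2 regions were singled out after their values were seen, as the others of Slc9a3 at which the groups do not overlap.

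Atp1b1 (ENSMUSG00000026576.12, chr1:164437109-164458355, minus strand), which encodes the beta subunit that brings the pump to the membrane, was higher in UNx at 13 of 16 tested regions (median difference 10.4). Several of the 13 entered the test through the UNx libraries, among them those 3618, 7429 and 25503 bp from the start. This count and median therefore support no direction. Its promoter region, 520 bp upstream, was at 94.3, 90.2 and 89.3 in Sham and at 93.7, 94.5 and 87.5 in UNx, without separation (difference 0.64, SE 2.24, limma adjusted p = 0.91). The strongest distal region, 13483 bp upstream, was at 73.3, 78.0 and 72.5 in Sham and at 76.7, 67.1 and 81.7 in UNx. The groups overlap at both of these strong regions of Atp1b1.

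The region of Atp1b1 with the smallest p was a weak one upstream. This region, 7429 bp upstream (chr1:164465629-164465931), was at 2.59, 0 and 0 in Sham and at 31.6, 39.9 and 19.9 in UNx (difference 29.6, SE 9.57, limma adjusted p = 0.12). All UNx libraries were above all Sham libraries, and the difference was positive in the 15 alternatives that gave a value. The region entered the test through the UNx libraries, so these values are no support for a difference. In the full deposited lists a Sham 3 peak also overlapped it, at a −log10 q of 3.11. Another, 3618 bp upstream, was in no Sham list and in all UNx lists, at 13.0, 6.73 and 10.3, and no peak overlapped it in the full deposited Sham lists either. Of the 21 regions at Atp1b1, 8 had their summit in Nme7, the next gene. The tested ones there went both ways: a region 34907 bp from the start of Atp1b1 was at 51.2, 57.1 and 50.8 in Sham and at 35.8, 34.3 and 41.1 in UNx, and a region 25503 bp from it was at 0, 0 and 18.3 in Sham and at 30.6, 44.2 and 16.5 in UNx (difference 24.3, SE 10.8, limma adjusted p = 0.24). These 2 regions were singled out after their values were seen. The one 25503 bp from the start entered the test through the UNx libraries, so its p-value is no support for a difference.

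**Figure D4:**
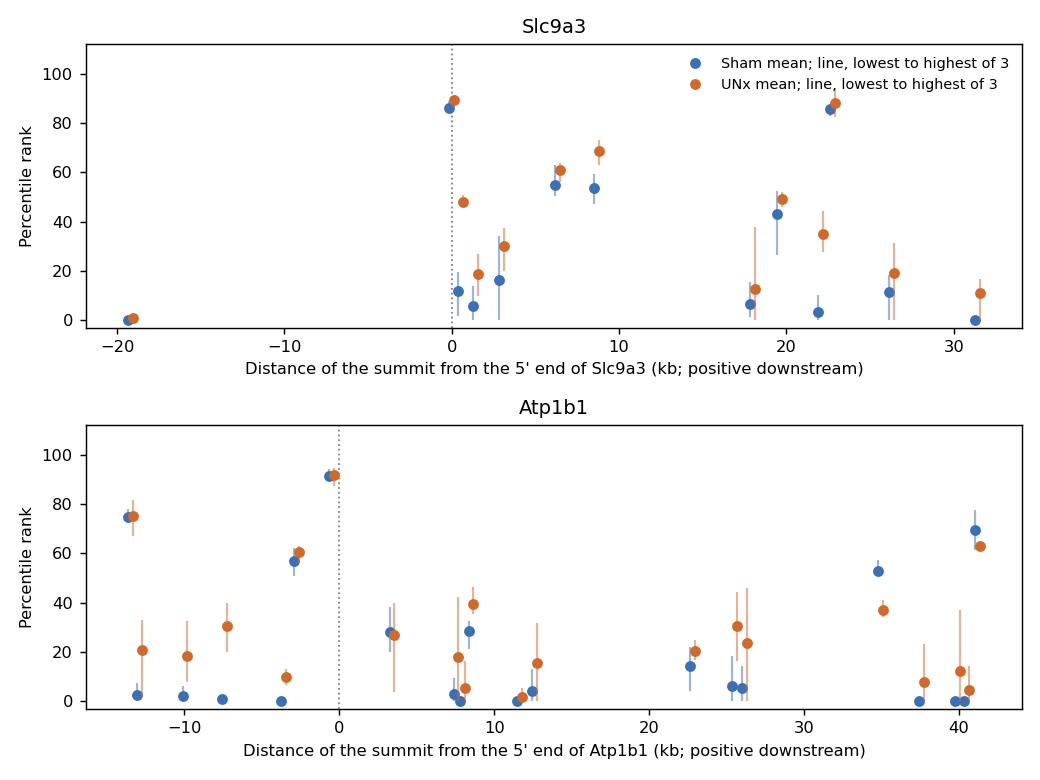
Percentile rank (vertical axis) of every region of Slc9a3 (top) and Atp1b1 (bottom) by the distance of its summit from the gene's 5′ end in kb. Points are means of 3 Sham or 3 UNx libraries and lines run from the lowest to the highest library. The strongest regions overlap between the groups, while at Slc9a3 the region just inside the gene stands apart.

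Slc4a4 (ENSMUSG00000060961.14, chr5:88886818-89239653, plus strand) encodes the basolateral sodium-bicarbonate cotransporter and has the most regions, 55 of 59 with their summit in the gene. The kidney form, NBCe1-A, is known to be made from the internal start, and longer forms found in pancreas and elsewhere from the upstream one. The internal promoter (chr5:89027455-89028593) was at 94.4, 96.2 and 92.9 in Sham and at 95.3, 94.4 and 97.9 in UNx. The upstream promoter (chr5:88886446-88888628), whose sequence is the CpG-rich one, was at 64.9, 67.5 and 52.8 in Sham and at 61.0, 60.9 and 73.5 in UNx. In 6 of 6 libraries the internal promoter ranked above the upstream one, by 31.7 ± 5.45 percentile points (SD). This gap averaged 32.7 in Sham and 30.7 in UNx. Neither promoter passed the test between the operations (differences 1.41, SE 1.63, and 3.41, SE 6.54, limma adjusted p = 0.69 and 0.83).

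The strongest distal region of Slc4a4 lay in an intron 43126 bp in (chr5:88929348-88930409) and ranked with the internal promoter, at 95.1, 95.5 and 92.8 in Sham and at 97.8, 97.3 and 96.7 in UNx. UNx was above Sham in every library there, by 2.79 (SE 1.49, limma adjusted p = 0.33). The region with the smallest p of this gene, 74790 bp in, was at 85.0, 80.8 and 73.8 in Sham and at 84.3, 91.8 and 91.9 in UNx (difference 9.48, SE 3.38, limma adjusted p = 0.15). Of the 14 distal regions tested upstream of the internal start, 5 had a mean percentile over 75, and of the 18 tested downstream of it 1 did. The strong distal regions of Slc4a4 therefore lay mostly between its upstream and internal starts. UNx was higher at 9 of the 14 and at 14 of the 18, while over all tested regions 49.9% were higher. Downstream of the internal start, 3 of the higher regions were in no Sham list and were tested only through the UNx libraries. These counts therefore support no direction.

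In all UNx lists and in no Sham list were 3 regions of Slc4a4, and with the Atp1b1 region these made 4 of the 147, against 1.04% of all regions. Without Sham 3, or without UNx 2, there were 7 such regions of either direction. None of the 147 were in all Sham lists and no UNx list, where the share of all regions was 0.934%. The first, 184484 bp in, was at 30.9, 9.39 and 30.6 in UNx, the second, 149612 bp in, at 24.2, 2.96 and 33.6, and the third, 249856 bp in, at 7.69, 22.2 and 13.0. None of the 3 passed the test (limma adjusted p = 0.17, 0.24 and 0.32), which they entered only through the UNx libraries. In the full deposited lists the first and second were still in no Sham list, but the third was in 2 of them, at a −log10 q of 4.69 and 4.25. All 4 regions are weak, and none was in this class when peaks were ranked by fold enrichment. In the other direction, a region 2552 bp before Slc4a4 was at 60.5, 49.9 and 54.4 in Sham and at 30.4, 38.5 and 38.1 in UNx (difference −19.3, SE 8.51, limma adjusted p = 0.23). It was chosen after its values were seen.

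**Figure D5:**
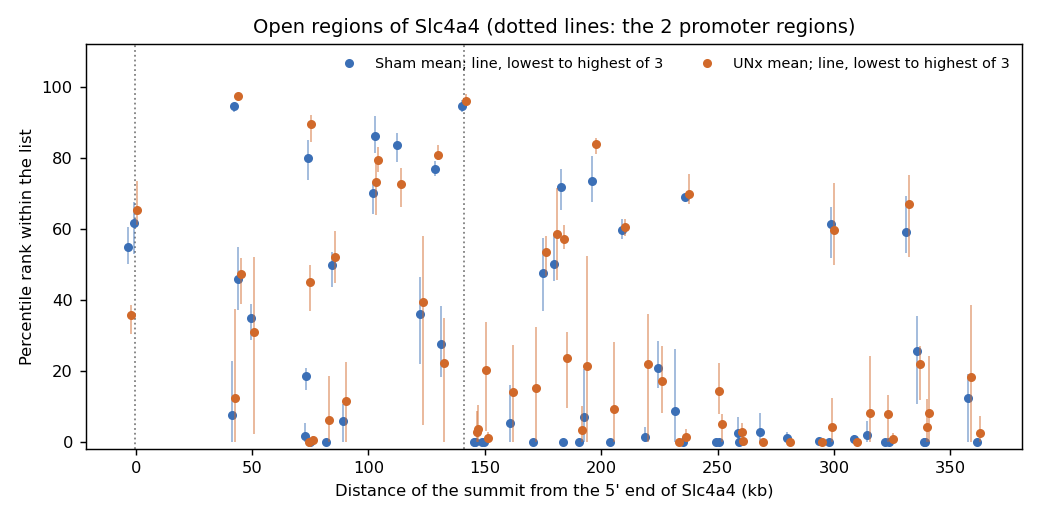
Percentile rank (vertical axis) of the 59 regions of Slc4a4 by the distance of the summit from the 5′ end in kb, with the group mean of 3 libraries as points and the lowest to the highest library as lines. The internal promoter (right dotted line) and the intron region at 43126 bp are at the top, and the upstream promoter (left dotted line) is near 63.4.

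The regions of the carbonic anhydrases had no common direction. At Car2 (ENSMUSG00000027562.12, chr3:14886273-14900770, plus strand), the cytosolic enzyme, UNx was higher at 4 and lower at 4 of 8 tested regions (median difference 5.07). The Car2 promoter region (chr3:14886066-14887079, summit 27 bp before the gene) was at 80.9, 84.5 and 78.1 in Sham and at 62.8, 67.8 and 78.7 in UNx. UNx 3 lay among the Sham libraries, and the difference was −11.4 (SE 4.87, limma adjusted p = 0.22). The difference had the same sign in all 17 alternatives tried, from −21.2 to −7.89 in the 16 that keep percentile points. A region 14667 bp before Car2 (chr3:14871394-14871786), in a coding exon of the neighbouring Car3, was at 72.9, 74.0 and 80.4 in Sham and at 56.5, 57.7 and 59.1 in UNx. All UNx libraries were below all Sham libraries there, as at 11.7% of all tested regions. The difference was −18.0 (SE 5.56), and with a limma adjusted p of 0.11 this region, of smallest p at Car2, did not pass. The strongest distal region of Car2, 32826 bp from its 5′ end and beyond its 3′ end, was at 81.3, 87.7 and 79.4 in Sham and at 82.4, 81.3 and 75.0 in UNx, which overlap. Among the 4 higher regions, all UNx libraries were above all Sham libraries at those 1579 and 3521 bp in. Their differences were 20.02 and 19.7 (limma adjusted p = 0.27 and 0.30). At those 11720 and 18106 bp from the 5′ end the groups overlap (differences 13.4 and 13.6, limma adjusted p = 0.22 and 0.24). These 4 regions were singled out after their values were seen, and none passed.

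Car4 (ENSMUSG00000000805.18, chr11:84957786-84966044, plus strand) encodes the membrane-anchored lumenal enzyme, and UNx was lower at 7 of its 9 tested regions (median difference −2.59). Its promoter region, 7 bp before the gene, was at 59.1, 57.6 and 66.2 in Sham and at 62.1, 58.3 and 57.0 in UNx. A region 11179 bp in, beyond the 3′ end, ranked far above this promoter, at 85.6, 80.6 and 90.0 in Sham and at 90.6, 87.3 and 92.7 in UNx. The region of Car4 with the smallest p, 20527 bp from the 5′ end, was at 58.1, 36.3 and 58.8 in Sham and at 29.8, 45.1 and 19.7 in UNx (difference −19.5, SE 10.1, limma adjusted p = 0.31). No region of Car4 had an unadjusted p under 0.05.

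Car14 (ENSMUSG00000038526.14, chr3:95897768-95904691, minus strand) encodes another membrane-bound enzyme and had a pair of tested promoter regions, neither of which passed the test. The one at its start, 39 bp upstream, was at 55.0, 55.4 and 61.5 in Sham and at 54.8, 66.8 and 52.3 in UNx, which overlap. The one in the intron 708 bp in (chr3:95903715-95904371) was at 52.1, 55.6 and 59.7 in Sham and at 80.2, 75.7 and 65.7 in UNx. All UNx libraries were above all Sham libraries there, by 18.1 (SE 6.12, limma adjusted p = 0.13), and the sign held in 16 of 16 alternatives. The strongest distal region of Car14, 16912 bp in and inside the gene BC028528, was at 91.1, 81.2 and 87.1 in Sham and at 86.3, 84.5 and 83.3 in UNx. The strongest regions in the Car14 window were promoters of its neighbours Ciart and Aph1a, and no difference between the operations was detected at either.

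Aqp1 (ENSMUSG00000004655.5, chr6:55336432-55348555, plus strand), the water channel, had 9 regions, and UNx was higher at 2 and lower at 4 of the 6 tested. The promoter region, 206 bp upstream, was at 85.5, 86.4 and 87.9 in Sham and at 90.4, 86.5 and 86.6 in UNx (difference 1.24, SE 2.48, limma adjusted p = 0.84). An intron region 1808 bp in had the same rank, at 84.7, 90.0 and 87.5 in Sham and at 86.9, 86.8 and 84.8 in UNx. The region of smallest p was in a coding exon 9026 bp in and was at 63.9, 67.4 and 59.4 in Sham and at 53.2, 22.0 and 53.4 in UNx. Its difference of −20.7 (SE 8.77, limma adjusted p = 0.21) did not pass, and 1 library, UNx 2, lay far below the others.

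Cldn2 (ENSMUSG00000047230.6, chrX:139800828-139811386, plus strand), the pore-forming claudin, was higher in UNx at 10 of 12 tested regions (median difference 6.45), none with an unadjusted p under 0.05. Its stronger promoter region, 666 bp upstream, was at 54.9, 78.5 and 61.7 in Sham and at 76.0, 75.1 and 62.3 in UNx, within the spread of the Sham libraries. The strongest distal region was in the gene, 6689 bp in, and was at 38.0, 60.6 and 47.8 in Sham and at 57.8, 57.6 and 39.3 in UNx. The smallest p was at a region 14737 bp upstream, at 39.9, 25.1 and 23.1 in Sham and at 43.0, 51.5 and 47.8 in UNx (difference 18.0, SE 9.62, limma adjusted p = 0.33). Cldn2 thus had no region of high rank in either group.

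The consensus strings of factor families were counted within 100 bp of the strongest summit, on both strands, in the 103 tested regions and in all tested regions. The E-box string CACGTG was in 11 (10.7%, against 4.76% of all), among them the Slc9a3 promoter, the Slc9a3 regions 22044 and 22781 bp in, the Car14 region 708 bp in and 3 regions upstream of Atp1b1. Promoters of the neighbouring genes Ciart and Ripply1 are among these 11, and those of Ciart and Aph1a are among the SP/KLF matches below. The steroid receptor string ACANNNTGT was in 10 (9.71%, against 5.38%), 5 of them at Slc4a4. The HNF1 string TTAATNATT was in 6 (5.83%, against 4.27%) and the HNF4 string CAAAGTCCA in 2 (1.94%, against 2.42%). HNF1 and HNF4 are factors of proximal tubule cells. The AP-1 string TGANTCA was in 7 (6.80%, against 7.24%), among them both Atp1b1 regions 3618 and 7429 bp upstream. The SP/KLF string CCGCCC was in 9 (8.74%, against 17.2%), the CTCF string CNAGGGGGC in 4 (3.88%, against 2.92%), the CREB string TGACGTCA in 1 (0.97%, against 0.68%) and the ERR string TCAAGGTCA in 0 (against 0.51%). None of the 9 strings contains another. These are matches of letters, several regions share a gene, and no test was made.

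Beyond the 8 genes, a list of 50 further genes of the same transport pathway was read at their promoters: partners of NHE3, other sodium-proton exchangers, bicarbonate and anion carriers, carbonic anhydrases, sodium pump subunits, water channels, claudins, proton pump subunits and potassium channels. A promoter region was found for 41, and 37 were tested. None passed limma's adjusted p of 0.05, and 7 had an unadjusted p under 0.05, where the share was 14.2% of all tested regions within 1 kb of a coding start. UNx was higher at 17 and lower at 20, with a median difference of −0.08, while over all coding promoters 47.3% were higher and the median was −0.18. The promoters of the wider list thus showed no common direction.

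Pump subunits had the smallest p in the direction of UNx. A region at an annotated start of Fxyd2 (chr9:45402959-45403298), the gamma subunit that modulates the pump, was in no Sham list and was at 40.8, 36.0 and 41.4 in UNx (difference 39.4, limma adjusted p = 0.064). It passed under 2 alternatives, without trend and robust variance (adjusted p = 0.035) and on normal scores (adjusted p = 0.031), and the adjusted p reached 0.19 in the others that gave one. The region entered the test only through the UNx libraries, so these p-values and passes are no support for a difference. No peak overlapped it in the full deposited Sham lists. The promoter of Atp1b2, another beta subunit, was at 55.0, 52.1 and 56.2 in Sham and at 82.7, 64.2 and 80.4 in UNx (difference 21.4, limma adjusted p = 0.095). The promoter of Atp1b3, also a beta subunit, had a mean percentile of 99.4 and did not pass the test.

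In the other direction, the promoter of Ezr, the linker that ties NHE3 and its scaffold proteins to actin, was at 90.7, 92.9 and 92.0 in Sham and at 79.6, 84.7 and 79.6 in UNx (difference −10.6, limma adjusted p = 0.060). The promoter of Car5b, a mitochondrial carbonic anhydrase, was at 90.4, 90.0 and 84.2 in Sham and at 82.9, 69.4 and 81.2 in UNx (difference −10.4, limma adjusted p = 0.15). The groups do not overlap at either, and neither passed.

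The labelled segment was checked at the promoters of marker genes. All 6 genes listed as markers of the S1 segment (Slc5a2, Slc34a1, Lrp2, Cubn, Hnf4a and Slc4a4) had mean percentiles of 87.2 to 95.2. Not all of these 6 are limited to S1, and Slc4a4 is 1 of the 8 genes described here. Of 21 markers of other nephron segments, podocytes, endothelium, stroma, leukocytes and injury, 13 had a promoter region, 9 were tested, and 8 had none, among them Slc12a3, Aqp2, Slc4a1, Ptprc and Cd68. Some of the others ranked high: the collecting duct marker Scnn1g was at a mean of 89.9, within the range of the S1 markers, Umod (thick ascending limb) at 67.4, Calb1 (distal tubule) at 65.6 and Col1a1 (stroma) at 65.1. The ranks therefore do not set S1 apart at every marker. Of 4 markers of the S2 and S3 segments, Slc22a7 was at 58.4, Cyp7b1 at 22.8 and Slc5a1 at 1.92, and Slc7a13 had no region. All UNx libraries were below all Sham libraries at Slc12a1 (thick ascending limb, means 56.9 and 30.2 in Sham and UNx), Scnn1g (93.0 and 86.8), Slc22a7 (66.6 and 50.1), Col1a1 (69.2 and 61.0) and Flt1 (endothelium, 11.9 and 0). The same held for Lrp2 (96.2 and 92.8) and Cubn (90.8 and 84.2) of the S1 list, and none of these passed the test. Of all tested regions within 1 kb of a coding start, 9.87% had this separation. Flt1 entered the test only through the Sham libraries, so its values are no support for a difference. Of the 9 tested among the 21 markers above, UNx was higher at 4 and lower at 5. Umod, also of the thick ascending limb, was among the 4 (means 65.4 in Sham and 69.4 in UNx). At the 6 S1 markers UNx was higher at 4 and lower at 2. The mean percentile of the 9 ran, per library, from 42.1 to 47.2 in Sham and from 36.8 to 43.7 in UNx. The part of other cell types in the differences at the 8 genes was not tested.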

How the data were processed

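The data are 6 ATAC-seq peak lists of dissected S1 tubules, 3 Sham and 3 UNx. Per the submitters' processing notes the tools were cutadapt 3.4, Bowtie, SAMtools, Picard and MACS2 2.2.7.1 with the build mm10, with settings and the filter on the lists not given in the sources used here. Peaks were called per library, and each deposited list gives, per summit, −log10 p and −log10 q values, a fold enrichment over the caller's background (a ratio) and a display score. These are the authors' values per summit and were used only within a list. The lists hold no read counts, so the depth is unknown and no interval that needs it is given. The deposited lists held 77355 to 100999 peaks.

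A peak was 1 interval with its strongest summit. From each list the top 77355 peaks by −log10 q were kept, the length of the shortest list, and ranked as percentiles. Intervals sharing 1 bp or more formed a region. Regions in at least 3 of 6 lists were tested with limma 3.58.1 in R 4.3.3 (eBayes with trend and robust, two-sided p adjusted by Benjamini-Hochberg over all tested regions, threshold 0.05). Counts per list were compared by exact permutation tests. Genes and starts came from GENCODE M21 (basic), and sequences from RefSeq GRCm38.p6. The code was tested on simulated data. Alternatives are listed in the closing section.

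The 8 genes, the wider list and the markers were chosen with earlier results of these data known. Of each gene the highest-ranked promoter region, the highest-ranked distal region, the region of smallest p and regions found under 1 operation only were named, and of the wider list the 2 of smallest p in each direction. Replicate numbers are shared between the groups, but nothing says that they pair libraries.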

Additional observations from a re-analysis of the deposited data

How the results depend on the processing

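Of the results at the 8 genes, the number of regions that passed (0) was the same under every alternative. The number over all regions, 589 of 74781, was 56 with the replicate number as a block, 517 without trend and robust variance, 2 with regions of any number of lists tested, 1583 on normal scores, 1 with GC-corrected ranks, 0 with that correction and the replicate block, 22 with all deposited peaks, 2 with the 20000 strongest, 3 ranked by fold enrichment, 180 with a −log10 q of at least 5, 382 with a reciprocal overlap of 50% and 31 to 382 with a library left out, lowest without UNx 1. The GC correction was added after seeing the data. Deviations of libraries with the same replicate number had correlations of 0.0082, −0.10 and −0.050, which gives no sign of pairing, and the block changed no call at the 8 genes. The cause of these changes was not tested. The median difference of 3.41 was 6.06 with the 20000 strongest peaks, −0.63 by fold enrichment, 7.27 with the −log10 q minimum, 5.14 with all deposited peaks and 5.87 for gene bodies alone, and 3.06 to 4.23 with a library left out. The median over all tested regions was 2.95 with the −log10 q minimum and 2.14 with all deposited peaks, against −0.01. The 4 regions found under 1 operation only became 0 with the 20000 strongest peaks, 0 by fold enrichment and 5 to 7 with a library left out (7 without Sham 3 and without UNx 2). The difference in regions per list, 16.0, was −1.67 by fold enrichment, 31.3 with all deposited peaks, 30.7 with the −log10 q minimum, 4.67 with the 20000 strongest, and 8.0 to 20.5 with a library left out, lowest without UNx 3. For the wider list, 1 promoter, Fxyd2, passed without trend and robust variance and 1, again Fxyd2, on normal scores.

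Single named regions with small differences turned sign, in 34 cases against 393 with the same direction. With GC-corrected ranks, with or without the replicate block, the difference was 1.14 at the strongest distal region of Car2, −0.60 at the Atp1b1 promoter and −0.77 at the Aqp1 promoter. The Car4 promoter was at 1.50 with all deposited peaks, 3.05 with the −log10 q minimum and 17.3 with the reciprocal overlap. The Cldn2 promoter was at −2.01 with the 20000 strongest peaks. Ranked by fold enrichment, the promoters of Slc9a3, Slc4a4 (internal), Atp1b1 and Aqp1 were at −2.28, −0.88, −3.06 and −1.94, and the strongest distal regions of Slc9a3, Atp1b1 and Cldn2 at −0.23, −3.79 and −2.74. With the −log10 q minimum the strongest distal regions of Car14 and Aqp1 were at 0.45 and 0.023. With a library left out, the strongest distal regions ran from −0.53 to 5.16 (Slc9a3), −4.44 to 0.53 (Car14), −2.72 to 4.60 (Atp1b1), −2.56 to 0.093 (Aqp1) and −2.63 to 8.90 (Cldn2), and the promoters from −3.55 to 0.75 (Car4), −0.67 to 2.85 (Atp1b1) and −0.032 to 1.90 (Aqp1).

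The depth of the libraries is unknown, and its part in the ranks was not tested. A rank is relative, so a shift common to all regions cannot be seen.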
